A study of Homo sapiens with 6 samples.

Results

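The B7 and SLAM family surface genes examined here were 10 genes of the 20033 protein-coding genes annotated on chromosomes 1 to 22, X and Y. The 3 B7 genes were CD86, CD80 and ICOSLG, and the 7 SLAM family genes were CD48, CD244, SLAMF1, SLAMF6, SLAMF7, SLAMF8 and LY9. V5-GSE1 peaks were assigned to a gene when they overlapped its GENCODE span extended by 50 kb on each side, and the same peak could fall in the windows of neighbouring genes. This rule found 8 of the 21401 peaks of DMSO-treated cells and 2 of the 13233 peaks of MC2580-treated cells.

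The peaks came from chromatin immunoprecipitation followed by sequencing (ChIP-seq) in NB4, an acute promyelocytic leukaemia cell line of human origin. Cells were transduced with the lentiviral pLEX_307 vector holding transcript variant 2 of GSE1, expressed with a V5 tag, and were kept for 24 h in MC2580 (2 µM), an inhibitor of the histone demethylase LSD1, or in the vehicle DMSO. NB4 cells with the empty pLEX_307 vector (EV), labelled as receiving no treatment, gave the control V5 ChIP. Of the 6 libraries, 3 were V5 ChIPs and 3 were inputs, with 1 library in each group. There were thus no replicates, and differences between the peak lists are differences between these libraries. The tagged GSE1 was added to the cells, so the peaks describe this exogenous protein. Both lists used the EV ChIP as background and therefore share that control. The study had named CD86 and CD48 among genes upregulated by MC2580 in RNA sequencing. Their promoters were among regions of reduced V5-GSE1 binding in these same libraries. It judged that reduction by read counts scaled for depth and length (RPKM), unlike the scores used here. At such promoters it also reported unaltered LSD1 binding and more of the histone mark H3K4me3, from separate ChIP-seq data. For some of the promoters it named, the study also used quantitative PCR of the precipitated DNA (ChIP-qPCR). It reported that this bore out the sequencing result, in biological replicates of NB4 and THP-1 cells. The expression, LSD1, H3K4me3 and ChIP-qPCR measurements were not part of the data examined here.

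B7 proteins are ligands on antigen-presenting cells. CD80 and CD86 bind CD28 and CTLA4 on T cells, and ICOSLG binds ICOS. SLAM family proteins are immunoglobulin-like receptors of blood cells, most of which bind a copy of themselves on the neighbouring cell and signal through small adaptors such as SH2D1A. CD48 is anchored in the membrane by a lipid and is the ligand of CD244. CD86 is also used as a surface marker of myeloid differentiation, and LSD1 is a corepressor enzyme that removes methyl groups from histone H3.

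In DMSO, 7 of the 10 genes had at least 1 V5-GSE1 peak in their window, compared with 47.9% of all protein-coding genes. In MC2580, 2 of the 10 genes had a peak, against 27.3% of all protein-coding genes. The members lie on chromosomes 1, 3 and 21, which held fewer peaks than the genome as a whole, and on these chromosomes the shares were 39.4% in DMSO and 14.5% in MC2580. The count of 7 in DMSO rested on the 50 kb extension and on weak peaks: it was 3 of 10 with an extension of 10 kb or none, and 4 of 10 at a score of at least 100. The shares of all protein-coding genes were not counted at these other settings, so these counts cannot be set beside the shares above. SLAMF1, SLAMF7 and LY9 were counted through peaks that also lay in the windows of CD48 or CD244. CD86 and SLAMF6 had peaks in both lists. CD48, CD244, SLAMF1, SLAMF7 and LY9 had peaks in the DMSO list alone, so that 5 of 7 genes with a DMSO peak had no MC2580 peak. The same was seen for 47.5% of all protein-coding genes with a DMSO peak, and for 64.2% of those on chromosomes 1, 3 and 21. CD80, ICOSLG and SLAMF8 had no peak in either list.

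A transcription start site (TSS) with a DMSO peak within 3 kb was found at 3 of the 10 genes, namely CD86, CD48 and CD244. Of all protein-coding genes 16.1% had such a peak, and of those on chromosomes 1, 3 and 21, 9.4% did. In MC2580 none of the 10 genes had a peak within 3 kb of a TSS, against 7.87% of all protein-coding genes and 2.71% on the 3 chromosomes. Absence of the promoter peak in MC2580 was common among all genes, since 60.4% of protein-coding genes with a DMSO peak within 3 kb had no MC2580 peak there, and 73.7% of those on the 3 chromosomes. At CD86, CD48 and CD244 it was 3 of 3 genes. The lists hold only regions past the calling threshold, and an absent peak does not show absent binding.

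**Figure D1:**
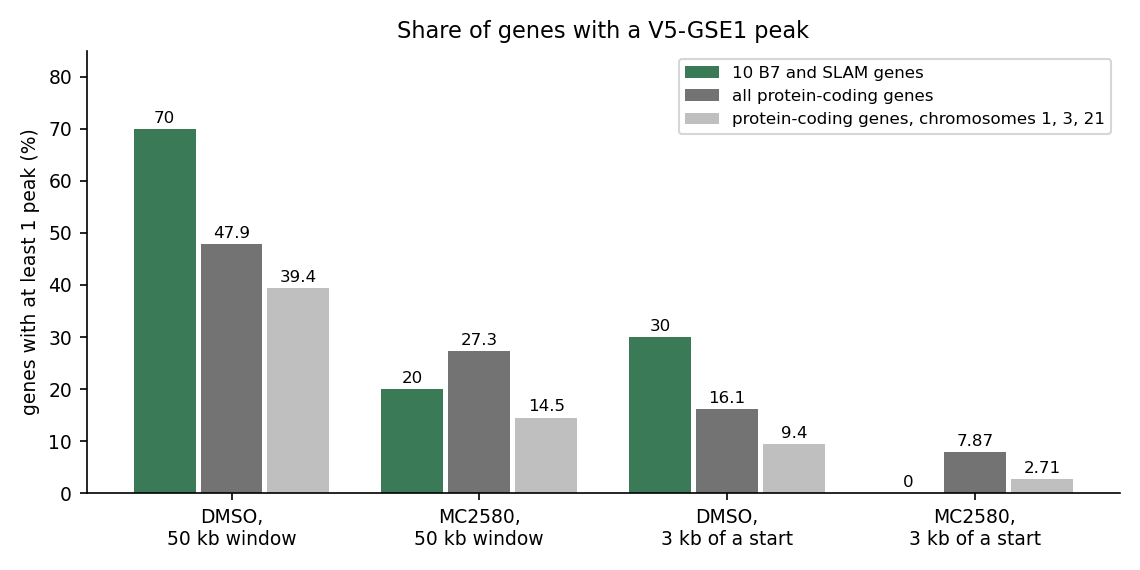
Percentage of genes (y axis) with at least 1 V5-GSE1 peak in the 50 kb window or within 3 kb of a TSS, for DMSO and MC2580, in the 10 B7 and SLAM genes, all protein-coding genes and those of chromosomes 1, 3 and 21. In DMSO the bars of the 10 genes stand for 7 and 3 genes, of which the 7 become 3 with an extension of 10 kb, and in MC2580 for 2 and 0 genes. The shares of all protein-coding genes were not counted at 10 kb.

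The windows of the 10 genes together covered 1.02 Mb. They contained 7.88 DMSO peaks per Mb, against 6.85 over the genome and 2.77 on chromosomes 1, 3 and 21. In MC2580 the density was 1.97 per Mb, against 4.2 and 1.07. The densities of the genome and of the 3 chromosomes were taken over full chromosome lengths, including sequence far from genes. Windows built around genes are therefore not a like measure. An MC2580 peak overlapped 2 of these 8 DMSO peaks by at least 1 bp, a share of 25.0% (Wilson 95% interval 7.15 to 59.1, covering counting error only). The share for all DMSO peaks was 33.6%, and 31.5% on the 3 chromosomes. With 8 peaks the interval is too wide to tell these shares apart. In the other direction, both MC2580 peaks overlapped a DMSO peak, as did 58.0% of all MC2580 peaks and 88.3% of those on the 3 chromosomes.

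Each peak carries a score from the peak caller, which is the log10 of the peak's p-value multiplied by 10 with the sign changed. A peak at the calling threshold has a score of 50. Scores grow with sequencing depth, which is unknown, and are set side by side here as a description. The 8 DMSO peaks had scores of 73.58, 74.07, 99.97, 120.45, 121.68, 204.05, 321.07 and 625.28. The 2 highest were those that overlapped an MC2580 peak, and the 6 others lay below them without exception. The median of the whole DMSO list was 91.08, and 6 of the 8 peaks were above it. Their widths were 658 to 1158 bp, close to the list median of 1000 bp.

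**Figure D2:**
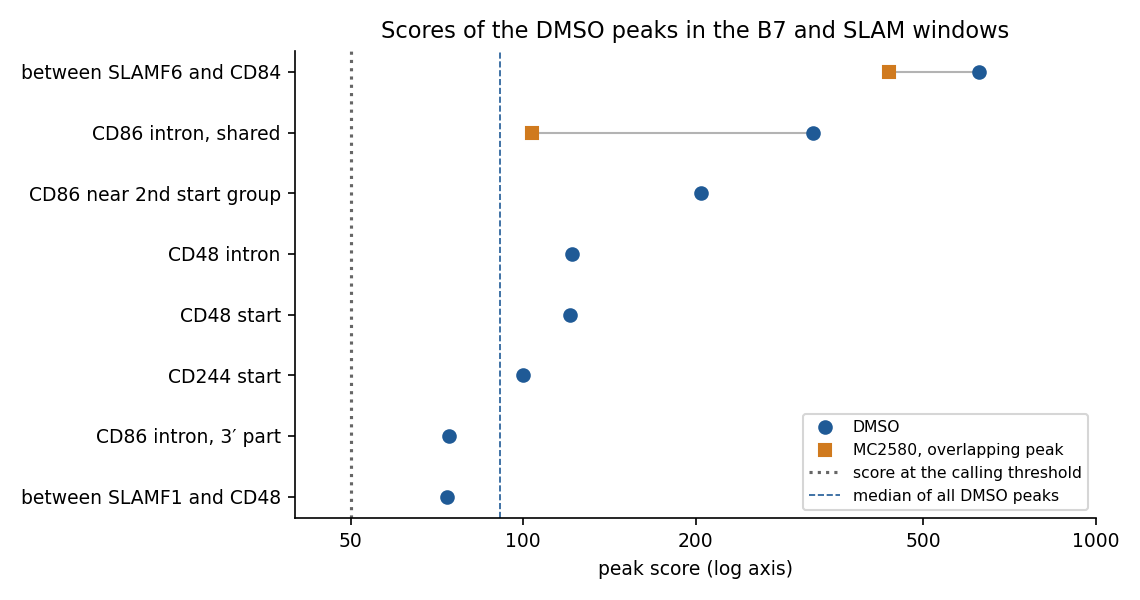
Peak scores (x axis, log scale) of the 8 DMSO peaks in the windows (circles) and of the MC2580 peaks that overlap them (squares). Squares are present for the highest-scoring peaks alone, at 435.69 between SLAMF6 and CD84 and at 103.6 in CD86. Both lie to the left of their DMSO circle.

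CD86 was the B7 gene with peaks in its window. It lies at chr3:122055362-122121139 on the forward strand (ENSG00000114013.16) and has 8 annotated start positions in 3 groups. The first group is at the upstream end of the gene, the next starts 22482 bp further into it, and a single transcript starts 36239 bp into it. All peaks within 50 kb of any of these starts lay inside the gene, 3 in DMSO and 1 in MC2580. None covered the upstream start, and the nearest was 11338 bp downstream of it.

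The CD86 peak with the highest score was found at chr3:122066700-122067812 in DMSO, in the first intron, with a score of 321.07. It ranked 2150 in the list, within the top 10.0%. This peak was the one with an MC2580 counterpart, at chr3:122066770-122067706 with a score of 103.6. The MC2580 peak lay entirely within the DMSO peak, and the overlap of 937 bp covered 84.2% of the latter. Of DMSO peaks with a score within 10% of 321.07, 72.5% overlapped an MC2580 peak, and 61.9% on chromosomes 1, 3 and 21. The ratio of the MC2580 to the DMSO score was 0.323. Over 5449 pairs in which a single peak of each list overlapped, the median ratio was 0.638, and 18.3% of pairs had a lower ratio than the CD86 pair. The ratio was therefore lower at this site than at most shared sites, without a replicate to give its error. The pairs were not matched by score, and no MC2580 score lay below 50.04. Pairs with a low DMSO score could thus not reach so low a ratio, which limits this comparison.

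The next peak, at chr3:122074371-122075509, lay 2335 bp upstream of the second group of starts and 19009 bp downstream of the first. Its score was 204.05, in the top 18.1% of the DMSO list. No MC2580 peak overlapped it, and the nearest was the shared intronic peak 6665 bp away. Among DMSO peaks with a score within 10% of this value, 56.5% overlapped an MC2580 peak, and 40.2% on chromosomes 1, 3 and 21. Most such peaks were thus shared over all chromosomes and most were not on these 3, so absence in MC2580 was not unusual at this score. The third peak, at chr3:122101823-122102749, was a weak intronic peak 10222 bp downstream of the last start, with a score of 74.07. It too had no MC2580 counterpart. Of DMSO peaks with a score within 10% of it, 17.9% overlapped an MC2580 peak, and 9.25% on chromosomes 1, 3 and 21.

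**Figure D3:**
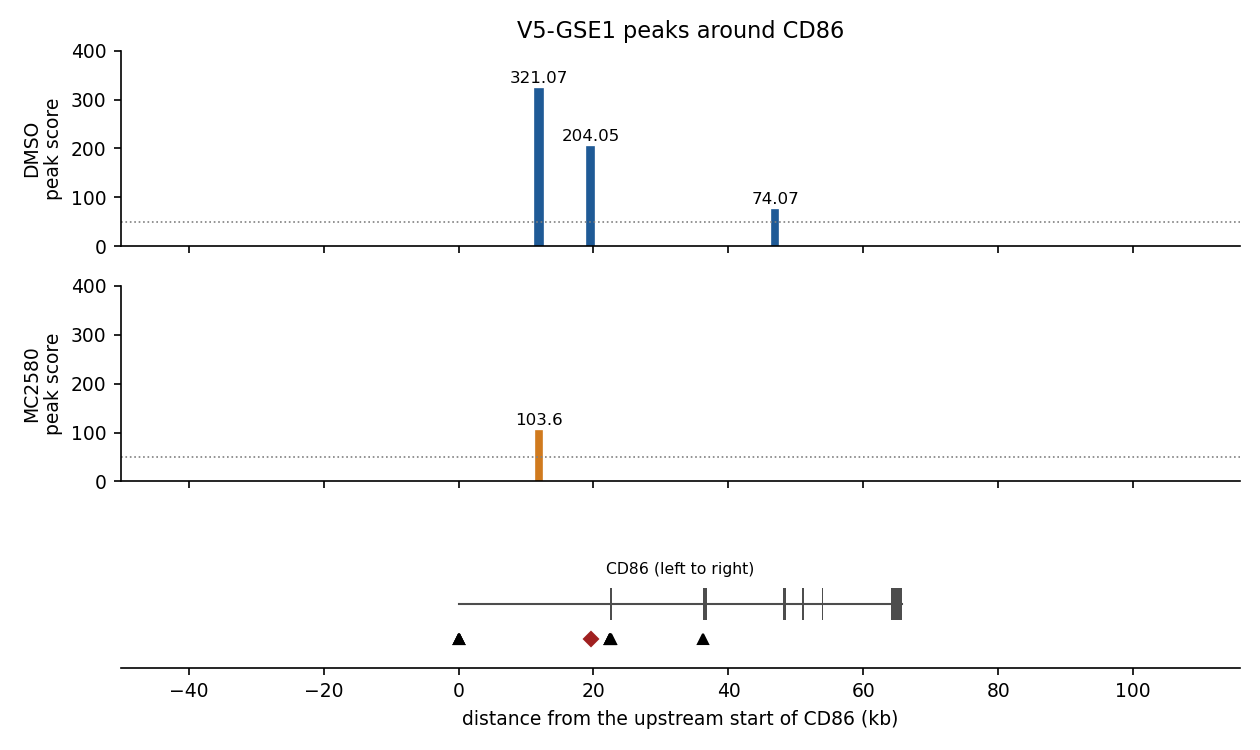
Map of the CD86 window, with distance from the upstream start in kb on the x axis and peak score on the y axis for DMSO and MC2580; bars have the width of the peaks, the dotted line marks the score of 50 at the calling threshold, and the lowest panel shows exons, start sites (triangles) and the ChIP-qPCR amplicon (diamond). DMSO peaks stand at 321.07, 204.05 and 74.07, all downstream of the upstream start, and MC2580 has the first of them alone, at 103.6.

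The amplicon that the study used to quantify V5-GSE1 at the CD86 promoter by ChIP-qPCR was placed on hg38 by exact match of its primers, which are shown because they fix the site that was called the promoter. It spanned 197 bp at chr3:122074872-122075068, wholly inside the DMSO peak of score 204.05. It lay 2776 bp from the nearest annotated start and 19510 bp from the upstream start, in an intron of the longer transcripts. No MC2580 peak overlapped it, the nearest being 7166 bp away.
CD86 forward primer: acctcagcaacttcctcctc
CD86 reverse primer: tgccccatcttgtttgtgtg

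The central 300 bp of both strong CD86 peaks are given for the forward strand, because a peak was called at the first in both lists and at the second in DMSO alone. Short consensus words of 7 factors or factor families were searched on both strands and are in capitals. The words were GAGGAAGT for PU.1, TGTGGTTT for RUNX, AATCNNNGC for GFI1, TTGCNNAA for CEBP, TGANTCA for AP-1, AGATAA for GATA and GAAANNGAA for the interferon-stimulated response element (ISRE). PU.1, CEBP and RUNX factors are central regulators of myeloid cells, and GFI1 recruits LSD1. The centre at chr3:122067106-122067405, of the peak found in both lists, held a GATA word. The centre at chr3:122074790-122075089, of the peak found in DMSO alone, held a PU.1 word on the reverse strand, read here as ACTTCCTC, which falls inside the forward primer.
CD86 intron, both lists: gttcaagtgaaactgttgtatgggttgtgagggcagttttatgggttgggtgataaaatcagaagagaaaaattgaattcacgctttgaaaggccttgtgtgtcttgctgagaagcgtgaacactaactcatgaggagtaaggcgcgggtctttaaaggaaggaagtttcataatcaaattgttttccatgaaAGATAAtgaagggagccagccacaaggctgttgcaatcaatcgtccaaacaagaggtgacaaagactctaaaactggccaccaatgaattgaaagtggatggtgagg
CD86 intron, DMSO alone: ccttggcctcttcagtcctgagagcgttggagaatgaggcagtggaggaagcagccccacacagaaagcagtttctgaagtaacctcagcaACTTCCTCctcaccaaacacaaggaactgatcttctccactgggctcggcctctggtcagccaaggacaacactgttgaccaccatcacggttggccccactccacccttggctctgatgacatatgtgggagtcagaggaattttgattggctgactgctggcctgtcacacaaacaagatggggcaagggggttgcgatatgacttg

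CD80, the other ligand of CD28, lies on the same chromosome as CD86 but had no peak. Its nearest DMSO peak was 267715 bp from a start site, with a score of 122.19, and its nearest MC2580 peak was 2507156 bp away. ICOSLG, on chromosome 21, also had an empty window. The nearest peak to an ICOSLG start was found in both lists 85903 and 86034 bp away, with scores of 137.73 in DMSO and 89.49 in MC2580. Among the B7 genes examined, V5-GSE1 peaks were thus recorded around CD86 alone.

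Of the SLAM family genes, 6 lie close together on chromosome 1, in the order SLAMF6, SLAMF1, CD48, SLAMF7, LY9 and CD244, and their windows overlap. In total 5 DMSO peaks and 1 MC2580 peak fell in these windows. SLAMF8 lies apart from them on the same chromosome. The 1 Mb bin that holds the whole cluster contained 6 DMSO and 2 MC2580 peaks.

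**Figure D4:**
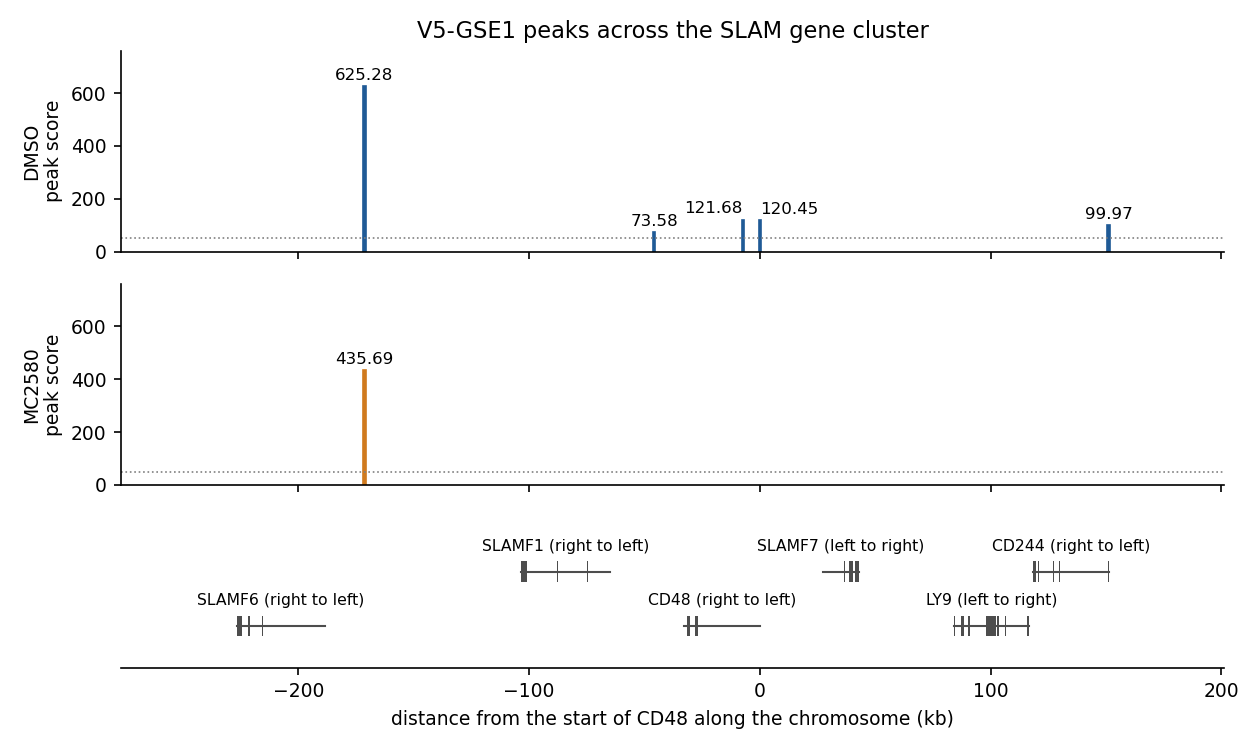
Map of the SLAM gene cluster, with distance from the start of CD48 along the chromosome in kb on the x axis and peak score on the y axis for DMSO and MC2580; the dotted line marks the score of 50 at the calling threshold and the lowest panel shows exons and the direction of each gene. Of 5 DMSO peaks the highest, at 625.28 between SLAMF6 and CD84 (not drawn), is the one also present in MC2580, at 435.69.

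CD48, the ligand of CD244 and a weaker ligand of CD2, is encoded at chr1:160678746-160711831 on the reverse strand (ENSG00000117091.10), with 3 start positions within 28 bp of each other. All peaks within 50 kb of these starts were DMSO peaks, 3 in number. The promoter peak at chr1:160711431-160712408 covered the starts and had a score of 120.45. Another peak of like score, 121.68, lay in the gene at chr1:160704079-160704736, 7067 bp downstream of a start. The third, at chr1:160665566-160666351, was intergenic, 12395 bp beyond the 3′ end of CD48 and 18522 bp upstream of SLAMF1, and its score was 73.58. None overlapped an MC2580 peak, and the MC2580 peak nearest to a CD48 start was 170887 bp away. Among DMSO peaks with scores within 10% of that of the CD48 promoter peak, 36.1% overlapped an MC2580 peak, and 23.7% on chromosomes 1, 3 and 21. For the intronic peak these shares were 36.5% and 25.8%, and for the intergenic peak 17.7% and 9.04%. Absence in MC2580 was thus common for peaks of these scores.

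The ChIP-qPCR amplicon of the CD48 promoter, placed in the same way, spanned 181 bp at chr1:160711725-160711905. It covered the annotated starts and lay wholly inside the DMSO promoter peak.
CD48 forward primer: ttccagagccagacacgaat
CD48 reverse primer: tgtgctgggtggagagaaaa

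CD244, the receptor for CD48 and an activating or inhibitory receptor of natural killer cells, had a promoter peak of its own. The gene lies at chr1:160830160-160862887 on the reverse strand (ENSG00000122223.13). The DMSO peak at chr1:160862334-160863347 covered its upstream starts and had a score of 99.97, so that it was within the upper 44.3% of the list. No MC2580 peak overlapped it, and the nearest was 150093 bp away, with a score of 54.87. Of DMSO peaks with a score within 10% of this one, 27.6% overlapped an MC2580 peak, and 16.0% on chromosomes 1, 3 and 21.

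The 300 bp immediately upstream of CD48 (chr1:160711832-160712131) and of CD244 (chr1:160862888-160863187) are given on the reverse strand, the strand of the genes. They are shown because they are the promoter stretches inside the peaks that the MC2580 list lacked. The CD48 stretch held a GATA word, and the CD244 stretch held an AP-1 word. Among protein-coding genes, 9.81% had the GATA word and 6.64% the AP-1 word in the 300 bp upstream of the gene.
CD48 upstream: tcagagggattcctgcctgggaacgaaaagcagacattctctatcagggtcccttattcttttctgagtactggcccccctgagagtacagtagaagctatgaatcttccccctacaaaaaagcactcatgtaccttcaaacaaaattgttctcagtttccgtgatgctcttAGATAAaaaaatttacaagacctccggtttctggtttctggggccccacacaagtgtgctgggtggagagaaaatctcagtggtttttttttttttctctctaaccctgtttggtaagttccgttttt
CD244 upstream: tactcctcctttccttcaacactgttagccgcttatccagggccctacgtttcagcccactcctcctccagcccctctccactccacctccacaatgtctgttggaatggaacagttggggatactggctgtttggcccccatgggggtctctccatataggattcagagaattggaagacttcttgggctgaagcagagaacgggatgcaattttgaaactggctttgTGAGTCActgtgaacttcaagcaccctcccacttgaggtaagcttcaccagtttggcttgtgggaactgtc

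The strongest peak of the family lay between SLAMF6 and CD84, another SLAM family gene. It was found in DMSO at chr1:160539814-160540971 with a score of 625.28, in the top 4.46% of the list. In MC2580 it was found at chr1:160539832-160540916 with a score of 435.69, in the top 4.96% of that list. It was 16552 bp upstream of the SLAMF6 start and 124 bp beyond the 3′ end of CD84. The nearest annotated CD84 start was closer than that of SLAMF6, at 10439 bp, although the upstream end of CD84 was 38545 bp away. The peak was also 2741 bp from a start of the unnamed gene ENSG00000234425, inside which it lay. The MC2580 peak was contained in the DMSO peak, of which it covered 93.7%. The ratio of the scores was 0.697, close to the median of 0.638 over shared pairs, and 55.2% of pairs, not matched by score, had a lower ratio. Of DMSO peaks with a score within 10% of this one, 90.1% overlapped an MC2580 peak, and 84.0% on chromosomes 1, 3 and 21. Presence in both lists was thus common for peaks of this score.

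The central 300 bp of this peak, chr1:160540243-160540542, are given on the reverse strand, the strand of SLAMF6, because it was the site of the cluster found in both lists. They held a RUNX word, a PU.1 word (as ACTTCCTC) and a GATA word, more kinds than any other DMSO centre of the windows.
SLAMF6 to CD84, both lists: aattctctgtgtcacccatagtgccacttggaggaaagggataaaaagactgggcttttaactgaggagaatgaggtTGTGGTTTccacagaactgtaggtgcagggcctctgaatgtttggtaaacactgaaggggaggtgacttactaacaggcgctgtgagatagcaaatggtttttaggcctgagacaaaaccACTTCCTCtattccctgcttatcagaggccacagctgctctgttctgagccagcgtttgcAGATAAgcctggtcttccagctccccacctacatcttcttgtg

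The remaining SLAM family genes had no peak that fell in their window alone. SLAMF1, a self-ligand receptor of lymphocytes and a sensor of bacteria in phagocytes, had the intergenic DMSO peak shared with CD48, of score 73.58. This peak was 18522 bp upstream of the SLAMF1 start and 45452 bp from a CD48 start. The nearest annotated start of any gene was that of SETP9, at 3797 bp. SLAMF7, a self-ligand receptor of natural killer and plasma cells, had in its window the CD48 promoter and intronic peaks, at 26649 and 34321 bp from the gene. LY9, whose gene adjoins CD244, had the CD244 promoter peak in its window, 34073 bp from the gene. These assignments rest on the 50 kb extension, and 57035 bp, from SLAMF1 to the CD48 intronic peak, was the smallest distance left outside it. At the 3 kb limit, the CD86 peak at 2335 bp was inside and the CD48 intronic peak at 7067 bp was the next outside.

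SLAMF8, a receptor of myeloid cells, had an empty window. The nearest DMSO peak to a SLAMF8 start was 77030 bp away with a score of 126.62, and the nearest MC2580 peak 89490 bp away with a score of 51.15. Measured from the gene span, these peaks were 72543 and 85003 bp away. A further DMSO peak of score 131.79 and an MC2580 peak of score 79.31 overlapped each other, 86692 and 86713 bp from the span.

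Words at the centres of the 8 DMSO peaks were set beside those of the 21145 DMSO peaks on chromosomes 1 to 22, X and Y. The PU.1 word was present in 3 of 8 centres, against 4.04% of all DMSO centres. These were 2 CD86 peaks and the peak between SLAMF6 and CD84. The RUNX word was present in 2 of 8, the peak between SLAMF6 and CD84 and the weak CD86 peak, against 6.11%. The GATA word occurred in 3 of 8 against 15.6%, the AP-1 word in 2 of 8 against 13.3%, and the CEBP word in 1 of 8 against 19.2%. The GFI1 word was in 0 of 8 against 21%, and the ISRE word in 0 of 8 against 9.77%. These counts hold for the central 300 bp alone. Over the whole width, the PU.1 word was in 3 of 8 peaks, RUNX in 2, GATA in 4 and AP-1 in 4. The CEBP word was then in 3 of 8, GFI1 in 1 and ISRE in 2, and no share over all whole peaks was counted. With 8 peaks these are descriptions, and a word is not evidence that its factor was bound. The GC content of the 8 centres was between 39.0% and 57.3%, on either side of the median of 48.7% for all DMSO centres.

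Other genes of the same pathways were counted for comparison, 19 in all. They were further B7 family genes (CD274, PDCD1LG2, CD276, VTCN1, VSIR, HHLA2, NCR3LG1), receptors of B7 proteins (CD28, CTLA4, ICOS, PDCD1, TMIGD2), further SLAM family genes (CD84, SLAMF9), CD2 and CD58, and signalling partners of SLAM receptors (SH2D1A, SH2D1B, FYN). A DMSO peak lay in the window of 11 of 19 and an MC2580 peak in that of 8 of 19, beside 47.9% and 27.3% of all protein-coding genes. CD84 was counted in both lists through the peak already counted for SLAMF6. No shares were counted for the chromosomes of these 19 genes. Within 3 kb of a TSS, 4 of 19 had a DMSO peak, all of them B7 family genes, and 3 of 19 had an MC2580 peak, beside 16.1% and 7.87% of all protein-coding genes. Of these 4 genes, 2 had no MC2580 peak within 3 kb, beside 60.4% of all genes with a DMSO peak there.

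VSIR, which encodes the inhibitory B7 protein VISTA, had the highest promoter score in DMSO, 1086.42 at chr10:71752514-71755231, 2399 bp from a start. It overlapped an MC2580 peak of score 306.81, which lay 3390 bp from a start and so just missed the 3 kb limit, while other MC2580 peaks of VSIR were within it. CD274 and PDCD1LG2, the ligands of the receptor PDCD1, lie side by side on chromosome 9 among many peaks, with 20 and 28 DMSO peaks and 20 and 24 MC2580 peaks in their overlapping windows. Their highest promoter scores in DMSO were 101.82 and 101.52. NCR3LG1, a ligand of a natural killer cell receptor, had a DMSO promoter peak of score 54.66, near the calling threshold. FYN, the kinase recruited by SLAM adaptors and named here after its values were seen, was the gene with an MC2580 promoter peak and no DMSO one, and its score of 51.48 was also near the threshold.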

How the data were processed

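The data were 2 peak lists, from V5 ChIPs of DMSO-treated and MC2580-treated NB4 cells expressing V5-GSE1. As the study's methods state, reads were aligned by the authors to hg38 with Bowtie (version 4.8.2 as given) and kept where they matched once with at most 2 mismatches. Peaks were called with MACS (version 1.4.2) at a p-value of 1e-05, with the input and the EV ChIP as background. How the backgrounds were combined was not stated. The deposited peak score is minus 10 times the log10 of the p-value and is not corrected for depth, which is unknown. Each list was assigned to its condition by its name.

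Gene spans, transcript starts and exons came from GENCODE version 44 on hg38, and coordinates count from 1. Windows extended 50 kb beyond the gene span, promoters 3 kb from any annotated start, and peaks overlapping by at least 1 bp were counted as shared. Distances run from the nearer edge of a peak. The background was the same count over all protein-coding genes, at the 50 kb and 3 kb limits alone, or over all peaks. Words were searched in 300 bp at the midpoint of each peak, since no summit was given. Primer sequences were read from the study's primer list. Every member is named, with the peaks within 3 kb of a start, the highest peak of each window and all peaks within 50 kb of a CD86 or CD48 start; of the other pathway genes, at most 4 were to be named, by promoter score in DMSO. CD84 and FYN were named in addition.

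With 1 library per condition no test between conditions was made. The members and gene lists were chosen with earlier results of these data known. The background on chromosomes 1, 3 and 21 and the overlap of peaks of like score were added after seeing the data. Overlap, distance and word functions were tested on simulated data. Python 3.11.15, numpy 2.4.6, scipy 1.17.1, pysam 0.24.0 and matplotlib 3.10.9 were used.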

Additional observations from a re-analysis of the deposited data

How the results depend on the processing

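No paired analysis was possible because each condition had a single library, so that no replicate could be left out either. Of 44 alternative values, 34 stayed within 1.5 times the count or within the interval of the share, and 10 moved. Not all of the 34 could have moved. The removal of peaks wider than 7875 bp could not act on DMSO peaks of 658 to 1158 bp or MC2580 peaks of 937 to 1085 bp. The intervals of the shares, 7.15 to 59.1% and 34.2 to 100%, were wide enough to hold most values. The number of genes with a DMSO peak in the window fell from 7 to 3 with 10 kb or no extension and to 4 at a score of at least 100. The number with an MC2580 peak was 1 with 10 kb or no extension and 5 with 100 kb, instead of 2. The distinct MC2580 peaks numbered 1 and 5 under the same settings, and the distinct DMSO peaks fell from 8 to 5 at a score of at least 100. These changes follow from fewer or more peaks being admitted. The counts at start sites, 3 in DMSO and 0 in MC2580, became 2 and 0 within 1 kb, where CD86 dropped out, and 2 and 0 at a score of at least 100, where CD244 dropped out. The shares of all protein-coding genes were not counted at these alternative settings. Depth, which limits every statement on absence, was unknown and was not varied.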
